A study of Homo sapiens with 12 samples.

Results

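Genes of DNA replication and homologous recombination were described in 12 RNA-seq libraries of DU145, a human prostate cancer cell line that grows without androgen. The 48 genes were chosen by name, from helicase loading to recombination, and all 48 were among the 21439 genes of the count table. All 48 passed the filter on low counts, with between 125 and 7558 counts per library. Cells of the siCtrl group received a control siRNA and cells of the siATF6 group an siRNA against ATF6, both followed by 24 h of culture. Cells of the DMSO group received the solvent and cells of the Ceapin group 10 µM Ceapin-A7, both for 12 h. ATF6 is a membrane-anchored transcription factor of the unfolded protein response, and Ceapin-A7 is a small molecule that keeps the ATF6 protein in the endoplasmic reticulum (ER). All 4 groups, of 3 libraries each, were given thapsigargin, which blocks the ER calcium pump and causes ER stress, at 30 nM for 3 h before harvest. No unstressed cells and no untransfected, solvent-free cells were analysed here, and the labels do not say whether the 3 libraries of a group came from separate cultures, so p-values measure the spread between these libraries.

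Before a cell copies its DNA, the origin recognition complex with CDC6 and CDT1 loads the ring-shaped MCM2 to MCM7 helicase at origins. CDC45 and the GINS proteins then join the ring and activate it, and polymerases, the sliding clamp PCNA and its loader follow, fed by ribonucleotide reductase and thymidylate synthase. Many of these genes are transcribed at the G1/S boundary under E2F factors, and homologous recombination with BRCA1, BRCA2 and their partners repairs broken forks. Where bulk RNA of such genes differs, a different share of cells in S phase and a different amount of RNA per cell cannot be told apart.

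Total counts ran from 17760878 to 19202632 per library. The first principal component held 62.4% of the variance and separated the siRNA arm from the compound arm. ATF6 mRNA, the check of the labels, averaged 124.6 ± 1.08 CPM (counts scaled to library size, with TMM factors; SD, n = 3) with the control siRNA and 25.8 ± 0.810 with the ATF6 siRNA. DMSO had 71.4 ± 1.99 CPM and Ceapin 72.9 ± 1.91. Epithelial markers were present (KRT8 at 174.4 and KRT18 at 134.0 CPM on average in siCtrl). The summed leukocyte markers reached at most 1.04 CPM.

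After ATF6 siRNA, 27 of the 48 genes rose and 4 fell, with a median log2 fold change of 0.14. Over all 17823 genes tested, 16.1% rose and 15.3% fell (edgeR quasi-likelihood test, Benjamini-Hochberg adjusted p under 0.05), with a median of 0.00. Summed over the 48 genes, the level was 2765 to 2789 CPM in siCtrl and 3008 to 3048 CPM in siATF6, without overlap. The rises were small, at most 1.50-fold, and each role from G1/S regulators to the Fanconi pair held at least 1. The sum over the helicase loading genes did not rise. It was 1107 to 1123 CPM in siCtrl and 1091 to 1121 CPM in siATF6. After Ceapin-A7, 0 rose and 6 fell, with a median of −0.03, against 2.21% and 2.41% of all genes. Between the control groups, 47 of the 48 were higher in DMSO than in siCtrl, with a median of 0.73.

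**Figure D1:**
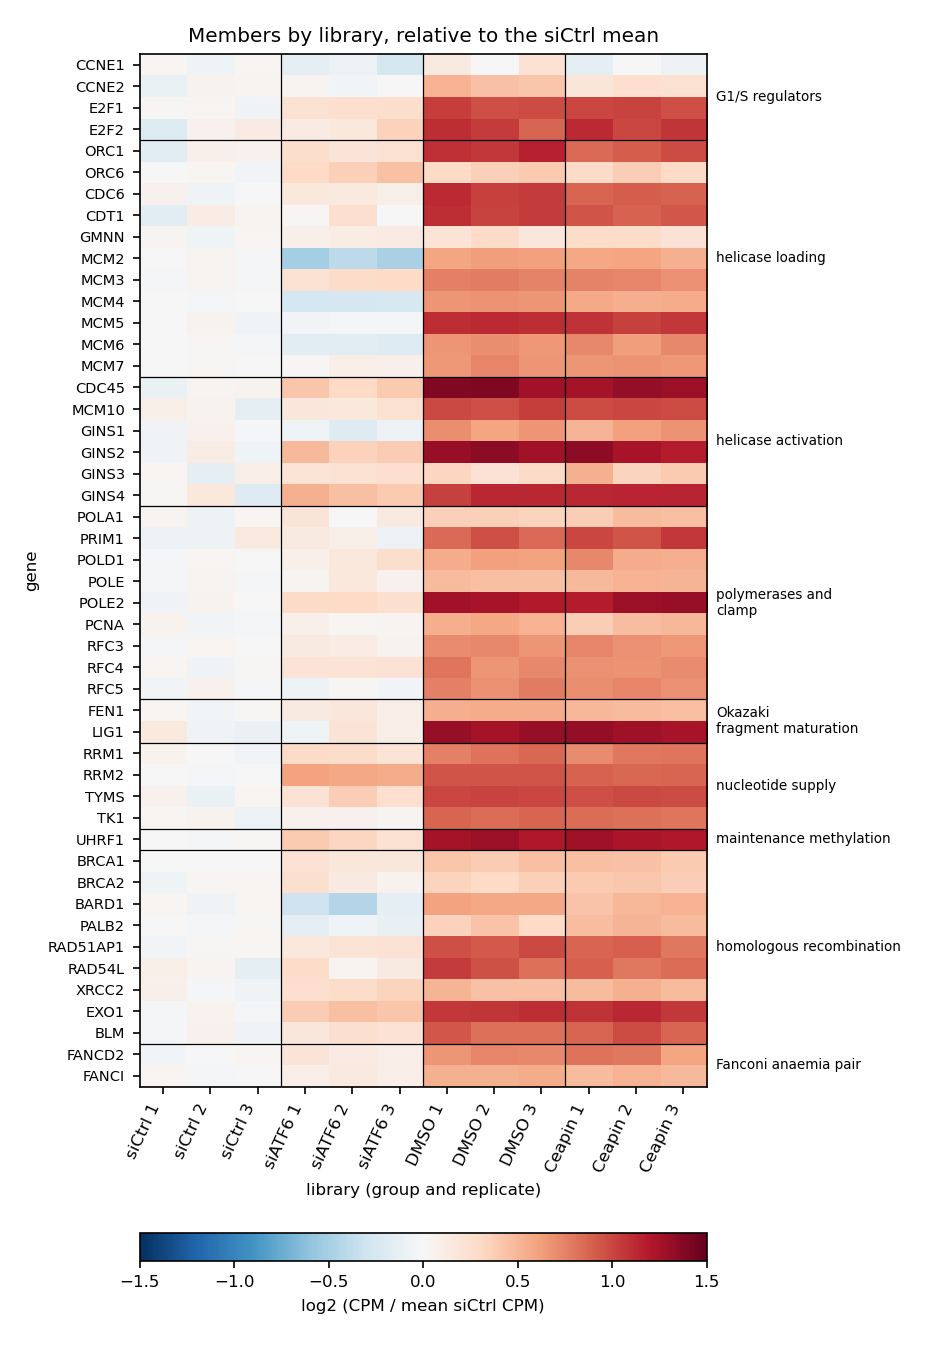
Each row is a gene, grouped by role, and each column a library; the colour is the log2 ratio of its TMM-scaled CPM to the mean of the 3 siCtrl libraries. The 6 libraries of the compound arm are red for nearly all genes, and MCM2, MCM4, MCM6 and BARD1 are blue in the 3 siATF6 libraries.

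Helicase loading genes moved both ways after the ATF6 siRNA: of 11 genes, 4 rose, 3 fell and 4 did not pass. ORC6, a subunit of the origin recognition complex (chromosome 16, 46689643 to 46698394, GRCh38), stood at 38.7, 39.4 and 37.3 CPM in siCtrl and at 47.4, 49.3 and 52.2 CPM in siATF6. Every siATF6 library lay above every siCtrl library, a rise of 0.37 (log2 fold change; SE 0.0446, edgeR adjusted p = 4.41e-08). ORC1, the ATPase subunit of the same complex, was at 18.4, 21.6 and 21.4 CPM in siCtrl and at 24.7, 23.5 and 24.0 CPM in siATF6, a rise of 0.23 (SE 0.0615) that was lost without siCtrl replicate 1 (edgeR adjusted p = 0.0658). CDC6, which helps to open and close the ring around DNA, stood at 105, 96.1 and 101 CPM against 112, 111 and 107 CPM (0.13, SE 0.0336, edgeR adjusted p = 0.00224). CDT1, its partner, and GMNN, which encodes the CDT1 inhibitor geminin, had values of 0.09 and 0.10 that did not pass.

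The 6 subunits of the MCM2 to MCM7 ring, which assemble in equal numbers, did not move together at the RNA level. MCM2 (chromosome 3, 127598223 to 127622436) stood at 100.3, 103.7 and 99.3 CPM in siCtrl and at 70.8, 76.8 and 72.2 CPM in siATF6. It fell by 0.46 (SE 0.0335, edgeR adjusted p = 3.9e-13), the largest fall of any member in this comparison. MCM4 was at 264, 261 and 264 CPM in siCtrl and at 218, 220.2 and 223 CPM in siATF6, a log2 fold change of −0.25 (SE 0.0222). MCM6 (chromosome 2, 135839626 to 135876426) was at 111, 112 and 109.8 CPM and at 99.4, 99.9 and 97.2 CPM, a change of −0.17 (SE 0.0310). In each of the 3 genes that fell, every siATF6 library lay below every siCtrl library.

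MCM3 (chromosome 6, 52264009 to 52284881) went the other way, from 202.0 ± 4.48 to 243.4 ± 5.33 CPM (0.27, SE 0.0253, edgeR adjusted p = 2.23e-10). MCM5 and MCM7 had values of −0.02 and 0.07 and did not pass, though MCM7 was called higher with DESeq2 size factors, with a filter of 1 CPM in 3 libraries, and without siATF6 replicate 1 or Ceapin replicate 2. Within a library, the log2 ratio of MCM2 to the mean of MCM3 to MCM7 does not depend on depth or scaling. It was −0.51 ± 0.0130 (SD, n = 3) in siCtrl, −0.96 ± 0.0482 in siATF6, −0.68 ± 0.0127 in DMSO and −0.68 ± 0.0349 in Ceapin. The ratio was lowest in the 3 siATF6 libraries. It was given no test, because this ratio was chosen with the fall of MCM2 known.

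**Figure D2:**
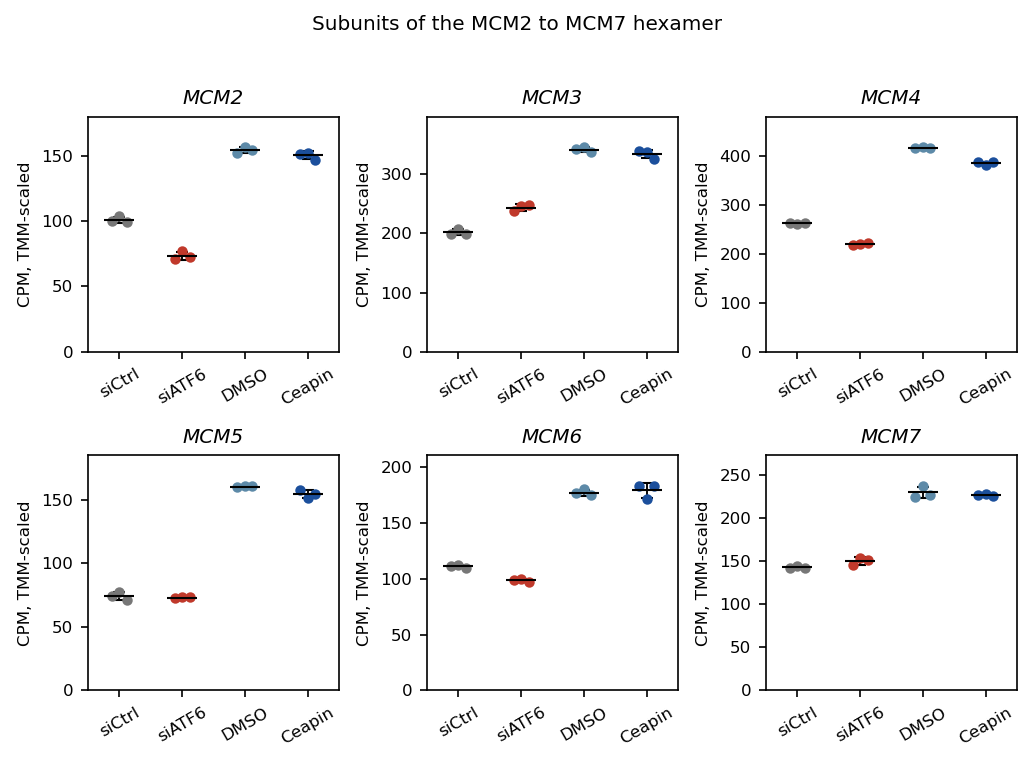
TMM-scaled CPM of the 6 MCM subunits in each library, with points for libraries, a horizontal line for the mean and bars for the SD of 3 libraries. MCM2, MCM4 and MCM6 are lower in siATF6 than in siCtrl, MCM3 is higher, and all 6 are higher in DMSO than in siCtrl.

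Of the 4 genes that fell, 3 carry the 7-base word GAGTCAT in the 3′ UTR. An earlier look at these data had found this word to be frequent in the 3′ UTRs of genes that fell after the ATF6 siRNA. The counts below come from the same comparison, so the word is no independent finding here. In the longest GENCODE 3′ UTR of each gene, searched on the mRNA strand, it occurred in 8.53% of 13453 tested genes, in 20.6% of 2503 genes that fell and in 4% of 2672 that rose. Of the 48 genes, 3 carried it, and these 3 were MCM2, MCM6 and BARD1, all among the 4 that fell. None of the 27 genes that rose and none of the 17 that did not pass carried it. MCM4, the other gene that fell, carried a 6-base part of it, as did 6 of the 27 genes that rose. Such a part is common: it was in 5904 of the 13453 tested genes, 1673 of the 2503 that fell and 950 of the 2672 that rose. The length of the 3′ UTR was not taken into account in any of these shares. The 3 sites are shown 5′ to 3′ on the mRNA strand in DNA letters, with the word in capitals, because among the 48 they were found only in genes that fell.
MCM2: gggtgggatgtGAGTCATgcggattatcc
MCM6: tctatgagaagGAGTCATtagagaactca
BARD1: acaaataggtaGAGTCATtcatatttgtc
The word began at base 531 of a 3′ UTR of 663 bases in MCM2, at base 529 of 1209 in MCM6 and at base 98 of 3030 in BARD1. After Ceapin-A7 these 3 genes had log2 fold changes of −0.04, 0.02 and −0.10, and none passed by edgeR, DESeq2 or limma-voom. In the 4 lists of other replication, nucleotide, recombination and G1/S genes, the word was in 4 of the 18 that fell after the siRNA (DCK, RMI1, MCMBP and CCND1). It was in 1 of the 34 that rose (NME1) and in 2 of the 50 that did not pass (NBN and CHEK1). The labels give no sequence of the ATF6 siRNA, and the part of this word in the falls was not tested.

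Helicase activation genes rose after the ATF6 siRNA in 5 of 6 cases, with a median of 0.30. CDC45, the subunit that joins the MCM ring to form the active helicase (chromosome 22, 19479459 to 19520612), stood at 24.3, 26.8 and 26.8 CPM in siCtrl. It stood at 34.7, 31.9 and 34.1 CPM in siATF6 (0.37, SE 0.0548, edgeR adjusted p = 1.87e-06). GINS2, a subunit of the GINS tetramer that joins with it, was at 13.8, 15.4 and 13.6 CPM in siCtrl and at 20.0, 18.1 and 18.6 CPM in siATF6 (0.40, SE 0.0689). GINS4 was at 16.8, 18.5 and 14.5 CPM and at 23.9, 22.7 and 21.8 CPM (0.46, SE 0.0677). In all 3 genes the groups did not overlap. GINS3 rose by 0.23, a call lost without siCtrl replicate 2 (edgeR adjusted p = 0.0822). GINS1, the other member of the tetramer, had a value of −0.12 and did not pass (edgeR adjusted p = 0.2). MCM10, which binds the activated helicase, rose by 0.18.

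Among polymerases, the clamp and its loader, 4 of 9 genes rose. POLE2, the second subunit of the leading-strand polymerase epsilon, rose by 0.27 (SE 0.0475) and RFC4, a subunit of the clamp loader, by 0.21 (SE 0.0392). POLE, the catalytic subunit of polymerase epsilon, rose by 0.09, and POLD1, that of the lagging-strand polymerase delta, by 0.17. The POLE call was lost without siCtrl replicate 1 (edgeR adjusted p = 0.0908), siCtrl replicate 3 (0.0629) or siATF6 replicate 2 (0.267). The POLD1 call was lost without siCtrl replicate 1 (0.0853), siATF6 replicate 2 (0.0517) or siATF6 replicate 3 (0.185). POLA1 and PRIM1 of the primase complex, the clamp PCNA and the loader subunits RFC3 and RFC5 had values from −0.03 to 0.11 that did not pass. Of the enzymes that process Okazaki fragments, the flap nuclease FEN1 rose by 0.14 (SE 0.0320), and the ligase LIG1 did not pass (0.08, SE 0.0809).

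Nucleotide supply held the largest rise of any member. RRM2, the regulatory small subunit of ribonucleotide reductase (chromosome 2, 10120698 to 10131419), stood at 164, 162 and 163 CPM in siCtrl and at 247, 244 and 240.1 CPM in siATF6. The libraries of the groups lay far apart compared with their spread, a rise of 1.50-fold (0.58, SE 0.0235, edgeR adjusted p = 1.58e-19). RRM1, its large subunit, rose by 0.25 (SE 0.0356) and TYMS, thymidylate synthase, by 0.28 (SE 0.0419), while TK1, thymidine kinase, did not pass (0.06). RRM2 and TYMS have pseudogenes in the annotation, and TYMS overlaps ENOSF1 on the opposite strand, so some of their reads may be shared. UHRF1, which recruits the maintenance DNA methyltransferase to newly copied DNA, stood at 40.1, 39.3 and 40.4 CPM and at 52.2, 49.8 and 46.8 CPM (0.31, SE 0.0440).

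The enzymes around these moved in both directions. Of 10 other genes of nucleotide supply, 4 rose and 3 fell after the ATF6 siRNA, against 16.1% and 15.3% of all genes tested. DUT, which removes dUTP, was at 52.5 ± 2.10 CPM in siCtrl and 31.8 ± 1.87 in siATF6 (−0.72, SE 0.0488). DCK, which salvages deoxycytidine, changed by −0.57 and SAMHD1, which degrades deoxynucleotides, by −0.35. CTPS1, which makes CTP, rose by 0.25. Of 37 other replication genes, 14 rose and 5 fell, with a median of 0.05. TIMELESS, of the complex that steadies the fork, changed by 0.34, POLE3 by 0.32 and POLD2 by 0.29.

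Of the 9 homologous recombination genes, 6 rose, 1 fell and 2 did not pass. EXO1, a nuclease that resects DNA ends (chromosome 1, 241847967 to 241895148), stood at 45.1, 47.9 and 45.3 CPM in siCtrl and at 60.0, 62.8 and 61.6 CPM in siATF6. Its rise of 0.41 (SE 0.0387, edgeR adjusted p = 1.92e-10) was well beyond the spread of the libraries. XRCC2, which acts in strand exchange, rose by 0.29 (SE 0.0434), RAD51AP1, which promotes strand pairing, by 0.20 (SE 0.0528), BRCA1 by 0.18 and BRCA2, a recombination mediator, by 0.14. The helicase gene BLM rose by 0.21, a call lost without siATF6 replicate 2 (edgeR adjusted p = 0.0541).

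BARD1, the partner of BRCA1 in its ubiquitin ligase (chromosome 2, 214725646 to 214809711), went the other way. It stood at 27.0, 25.5 and 27.1 CPM in siCtrl and at 21.5, 19.5 and 24.0 CPM in siATF6 (−0.29, SE 0.0603, edgeR adjusted p = 0.000242). PALB2, which links BRCA1 with BRCA2, had a value of −0.10 and did not pass, and RAD54L, a motor that acts on DNA during strand exchange, one of 0.15. In the Fanconi pair, which is ubiquitinated at crosslinks, FANCI rose by 0.12 and FANCD2 by 0.14. The FANCD2 call was lost without any of 8 libraries (edgeR adjusted p from 0.0527 to 0.153), and also with DESeq2 (0.0762) and limma-voom (0.0571). Of 32 other recombination and Fanconi genes, 7 rose and 1, RMI1, fell, against 16.1% and 15.3% of all genes tested. Called genes made up 25% of this list.

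**Figure D3:**
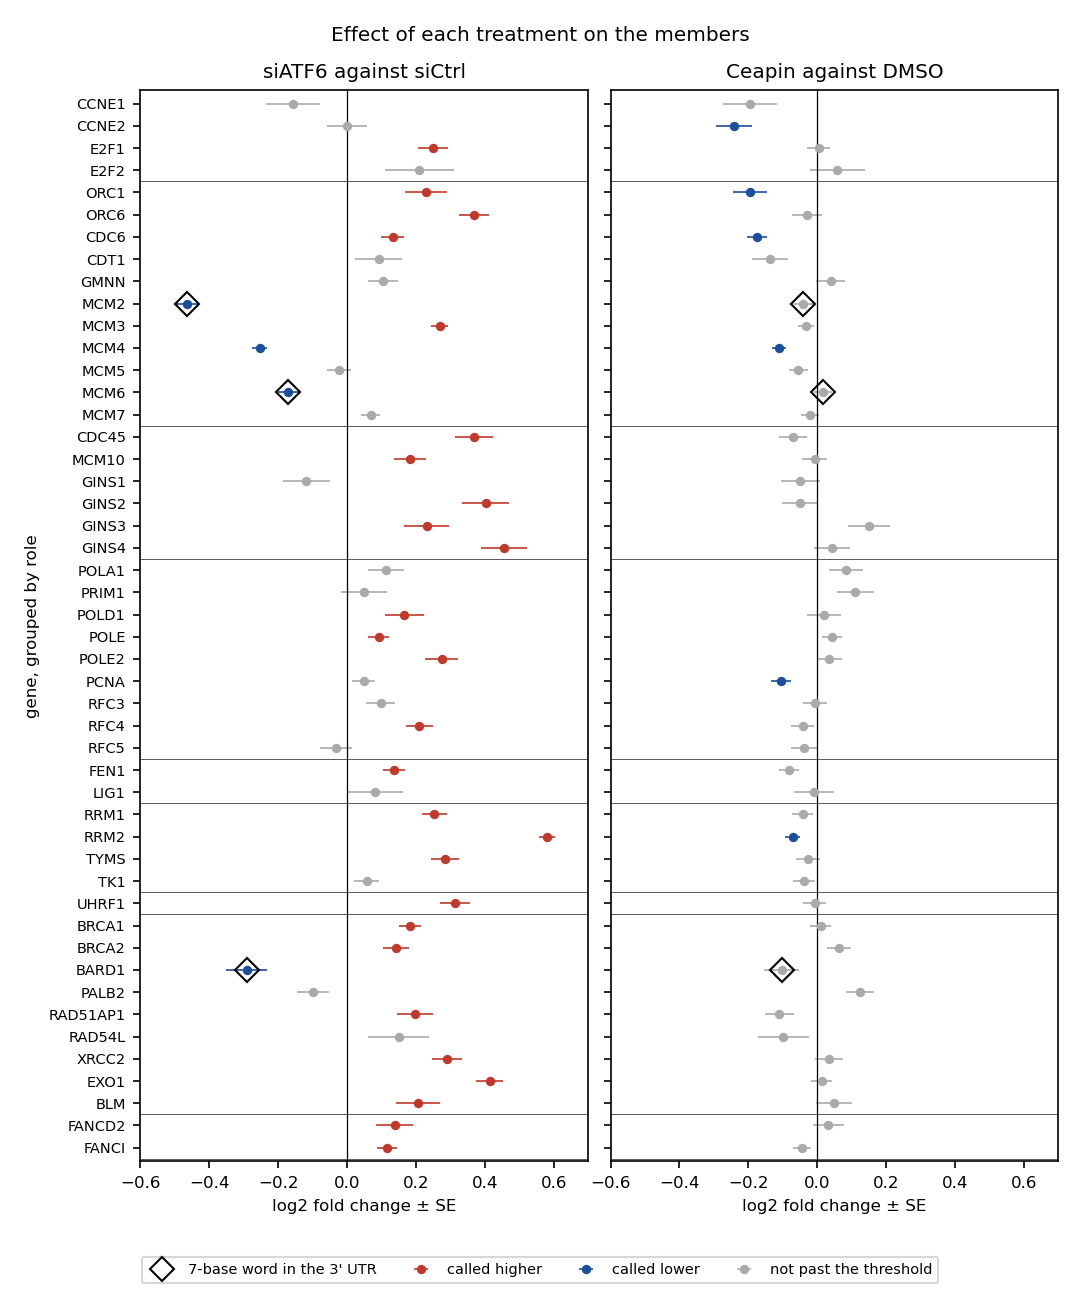
Log2 fold change and SE of each gene after ATF6 siRNA (left) and after Ceapin-A7 (right), on the same axis; red and blue points passed the threshold, and open diamonds mark genes with the 7-base word in the 3′ UTR. On the left 27 points are red and 4 blue, with RRM2 farthest right at 0.58 and MCM2 farthest left at −0.46; on the right 6 are blue and none is red.

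Of the 4 G1/S regulators, 1 rose after the ATF6 siRNA and 3 did not pass. E2F1, an activating E2F factor, stood at 35.9 ± 1.12 CPM in siCtrl and 42.7 ± 0.615 in siATF6 (0.25, SE 0.0428, edgeR adjusted p = 1.9e-05). E2F2 (0.21), and the cyclin E genes CCNE1 (−0.16) and CCNE2 (0.00), did not pass. Of 23 other G1/S control genes, 9 rose and 9 fell. CCND1, which encodes cyclin D1, was at 454 ± 8.86 CPM in siCtrl and 268 ± 2.95 CPM in siATF6 (−0.76, SE 0.0228). CDKN1A, which encodes the CDK inhibitor p21, changed by −0.33, E2F5 by −0.71 and TFDP1, an E2F partner, by 0.38. Of 25 mitosis genes, 15 rose and 1 fell. Over all genes tested, 16.1% rose and 15.3% fell.

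Ceapin-A7 against DMSO asked whether targeting the ATF6 protein moved the same genes. Of the 48, 6 fell, 0 rose and 42 did not pass. DESeq2 and limma-voom also called 6 lower and 0 higher, and 3 genes had a value above 0 with an unadjusted p under 0.05. The 95% intervals of the 42 reached at most from −0.38 (CCNE1) to 0.29 (GINS3) in log2. They used a t distribution with the 8 residual degrees of freedom and are not the intervals of the edgeR test. PRIM1, for example, had an unadjusted edgeR p of 0.0443 but an interval from −0.01 to 0.23. The 6 that fell were CCNE2 of the G1/S regulators, ORC1, CDC6 and MCM4 of helicase loading, the clamp PCNA, and RRM2.

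CCNE2, cyclin E2, stood at 32.4, 30.6 and 30.0 CPM in DMSO and at 25.6, 26.8 and 26.3 CPM in Ceapin. It fell by 0.24 (SE 0.0530, edgeR adjusted p = 0.00351), and the groups did not overlap. CCNE2 exons overlap INTS8 on the opposite strand, and whether the counting used strand is not stated. CDC6 was at 219, 204 and 208 CPM in DMSO and at 184, 189 and 186 CPM in Ceapin (−0.17, SE 0.0282, edgeR adjusted p = 7.25e-05). MCM4 was at 418, 419 and 417 CPM and at 389, 383 and 388 CPM (−0.11, SE 0.0203, edgeR adjusted p = 0.000369), a narrow change between tight groups.

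The other 3 calls were each lost when 1 library was left out. ORC1 stood at 43.7, 42.8 and 45.9 CPM in DMSO and at 36.9, 38.5 and 40.3 CPM in Ceapin (−0.20, SE 0.0487, edgeR adjusted p = 0.0124). It did not pass without DMSO replicate 3 (0.0955) or Ceapin replicate 1 (0.098). PCNA was at 185, 190.0 and 183 CPM against 164, 175 and 180 CPM (−0.11, SE 0.0298, edgeR adjusted p = 0.0317). It did not pass without DMSO replicate 1 (0.0697), DMSO replicate 2 (0.151), Ceapin replicate 1 (0.279) or Ceapin replicate 2 (0.0655). RRM2 was at 314, 314 and 313 CPM against 302, 295 and 298 CPM (−0.07, SE 0.0215, edgeR adjusted p = 0.0483). Its call was lost in 10 of the 12 fits that left out 1 library, with edgeR adjusted p from 0.0524 to 0.211. Without Ceapin replicate 1, 3 of the 48 genes were called lower, and without DMSO replicate 2, PALB2 was called higher.

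Of the 9 homologous recombination genes and 6 helicase activation genes, 0 passed after Ceapin-A7 by edgeR, DESeq2 or limma-voom, with 3 and 1 at an unadjusted p under 0.05. Since 2.21% of all genes were higher and 2.41% lower in this comparison, 0 calls in lists of this size is near the background. Among the wider lists, 0 of 32 other recombination genes passed by any of the 3 tools (8 at an unadjusted p under 0.05), and likewise 0 of 25 mitosis genes (5 at an unadjusted p under 0.05). Of 37 other replication genes, TOP1, which relaxes DNA ahead of the fork, rose by 0.17 (SE 0.0253) and RPA1, of the single-strand binding complex, fell by 0.10. RPA1 did not pass without DMSO replicate 2 (edgeR adjusted p = 0.0595) or Ceapin replicate 2 (0.0696). Of 23 other G1/S genes, 4 fell and 2 rose with edgeR, against 2 and 1 with DESeq2 and 4 and 1 with limma-voom. Most of these edgeR calls were lost without at least 1 library. The values in this list ran from −0.34 to 1.03, so the largest was a rise. CDC25A, the phosphatase that activates CDK2, went from 29.9 ± 1.52 to 23.6 ± 0.526 CPM (−0.34, SE 0.0516), and SKP2, of the ubiquitin ligase that degrades p27, changed by −0.24.

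Both treatments were compared gene by gene by testing the difference of their effects (siATF6 minus siCtrl, less Ceapin minus DMSO). It passed the threshold as positive for 23 of the 48 and as negative for 4, against 12.3% and 11.1% of all genes tested. By sign alone, it was above 0 for 41 of the 48. RRM2 had the largest difference, 0.65 (SE 0.0319, edgeR adjusted p = 5.04e-17). GINS2 followed with 0.45 (SE 0.0863), CDC45 with 0.44 (SE 0.0685), ORC1 with 0.43 (SE 0.0784), GINS4 with 0.41, EXO1 with 0.40 and ORC6 with 0.40. The negative differences that passed were those of MCM2 (−0.42, SE 0.0438), PALB2 (−0.22), MCM6 (−0.19) and MCM4 (−0.14). ORC1, CDC6 and RRM2 rose in one comparison and fell in the other, within the limits given above for their calls. MCM4 was the only one of the 48 that fell in both. For BARD1 the difference was −0.19 and did not pass (edgeR adjusted p = 0.0856). For CDT1 it was 0.23 and did not pass (edgeR adjusted p = 0.0549), but it did with DESeq2 size factors and without siCtrl replicate 2, siATF6 replicate 1 or siATF6 replicate 3.

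**Figure D4:**
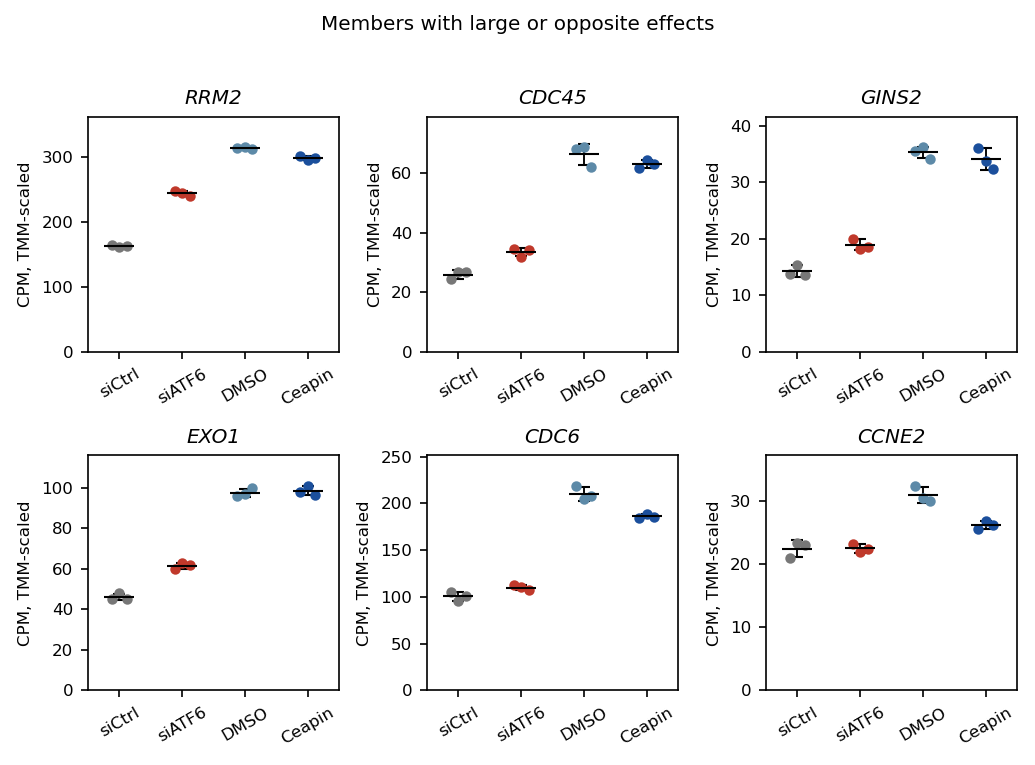
TMM-scaled CPM of 6 genes in each library, with points for libraries, a horizontal line for the mean and bars for the SD of 3 libraries. RRM2, CDC45, GINS2 and EXO1 are higher in siATF6 than in siCtrl, CDC6 and CCNE2 are lower in Ceapin than in DMSO, and the siATF6 libraries of all 6 genes lie below those of DMSO.

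The larger difference lay between the control groups. In DMSO against siCtrl, 47 of the 48 genes were higher and 0 lower with each of edgeR, limma-voom and DESeq2, with 0 below siCtrl at an unadjusted p under 0.05. Of all genes tested, 31.2% were higher and 30.7% lower, with a median of 0.01. The range was 0.12 to 1.35, and 13 of the 48 were at least 2-fold higher. The 95th percentile of all tested genes in this comparison was 0.947 in log2, just under 2-fold. CCNE1 alone did not pass (0.12, edgeR adjusted p = 0.183). Summed over the 48 genes, the level was 4656 to 4679 CPM in DMSO and 4525 to 4561 CPM in Ceapin. For 45 of the 48, every library of the compound arm lay above every library of the siRNA arm, the exceptions being CCNE1, ORC6 and GINS3. The same count was not made over all tested genes, and the first principal component also separated the arms.

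Helicase activation had the largest median of the roles with more than 1 gene, 1.05. CDC45 had 68.0, 68.7 and 62.2 CPM with DMSO and 61.9, 64.5 and 63.1 CPM with Ceapin-A7, above its siRNA-arm libraries, which lay between 24.3 and 34.7 CPM (1.35, SE 0.0486, edgeR adjusted p = 1.07e-21). GINS2 was 1.30 higher in DMSO than in siCtrl. LIG1 was at 12.9, 11.1 and 10.9 CPM in siCtrl and 28.7, 27.5 and 28.7 CPM in DMSO (1.29, SE 0.0697). UHRF1 was at 94.9, 97.0 and 91.9 CPM in DMSO (1.24, SE 0.0395). POLE2 was at 34.1, 36.8 and 35.5 CPM in siCtrl and 84.7, 83.4 and 80.8 CPM in DMSO (1.23, SE 0.0424).

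Within the MCM ring, MCM5 (chromosome 22, 35400063 to 35425430) differed most, from 74.3, 77.0 and 71.1 CPM in siCtrl to 159.6, 160.7 and 160.3 CPM in DMSO (1.11, SE 0.0302). The other 5 subunits lay between 0.61 (MCM2) and 0.76 (MCM3). EXO1 was at 95.9, 97.0 and 99.7 CPM in DMSO (1.08, SE 0.0360), and E2F2 at 17.3, 16.6 and 14.7 CPM, against 6.97, 8.41 and 8.75 CPM in siCtrl (1.01, SE 0.0906). TYMS was at 54.9, 49.0 and 53.6 CPM in siCtrl and 104.9, 106.1 and 105.6 CPM in DMSO (1.01, SE 0.0388). FANCD2 was at 33.0, 34.0 and 34.5 CPM and at 53.4, 56.0 and 55.7 CPM (0.70, SE 0.0495). Among the 9 homologous recombination genes, BRCA2 (0.33), PALB2 (0.36) and BRCA1 (0.42) differed least.

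**Figure D5:**
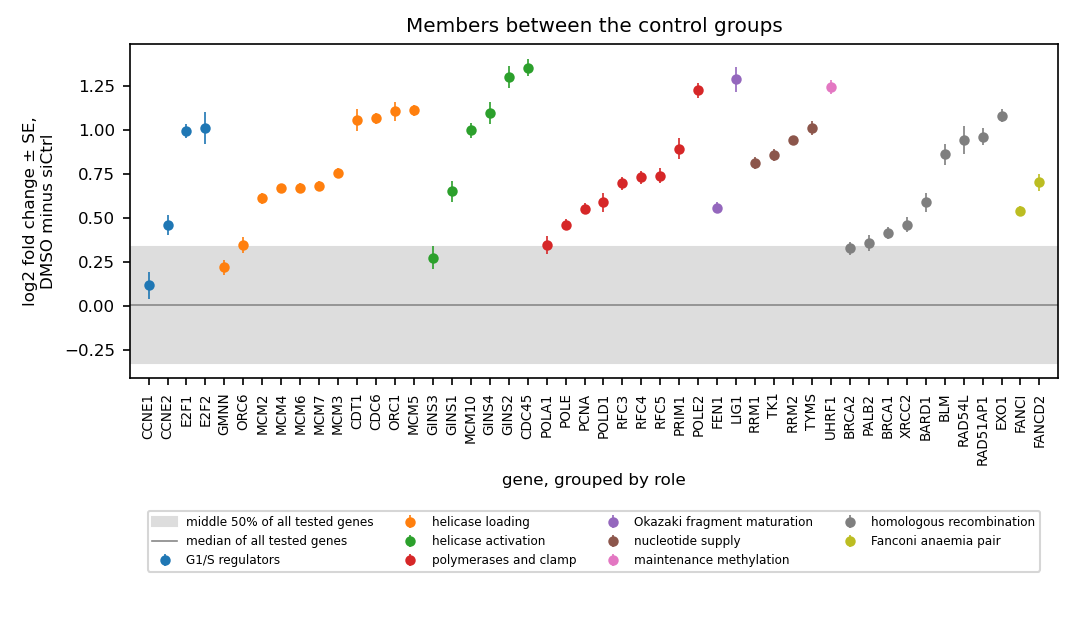
Log2 fold change and SE of the 48 genes in DMSO against siCtrl, sorted within each role; the grey band spans the middle 50% of all tested genes, from −0.32 to 0.34, and the line their median. The genes range from 0.12 for CCNE1 to 1.35 for CDC45, and most lie above the band.

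By titles and treatment text, the control groups differ in transfection, culture time and solvent together, and these cannot be told apart. A transfection label instead assigns control siRNA to the DMSO libraries. In most of the wider lists more genes were higher than lower, against 31.2% higher and 30.7% lower of all genes tested. All 25 mitosis genes were higher in DMSO, as were 29 of 37 other replication genes (1 lower), 21 of 32 other recombination genes (2 lower) and 7 of 10 other nucleotide genes (1 lower). The exception was the list of 23 other G1/S control genes, with 8 higher and 9 lower and a median of 0.02. CDKN1A was at 349 ± 10.8 CPM in siCtrl and 116 ± 2.05 CPM in DMSO (−1.59, SE 0.0316). Of the 6 epithelial markers, KRT5 was near 0 and the other 5 were higher in DMSO. Their summed level was 504 to 525 CPM in siCtrl, 445 to 473 in siATF6, 1367 to 1421 in DMSO and 1335 to 1395 in Ceapin. Mitochondrial transcripts took 6.65% to 7.49% of the counts in the siRNA arm and 9.71% to 10.5% in the compound arm. The part of each of these in the difference was not tested.

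This difference shares its siCtrl libraries with the siRNA comparison and its DMSO libraries with the Ceapin comparison, so only levels are set side by side. The siATF6 mean lay below the DMSO mean for 47 of the 48 genes, the exception being ORC6 (49.7 ± 2.43 CPM in siATF6 and 49.0 ± 1.57 CPM in DMSO). It lay between the siCtrl and DMSO means for 38 of the 48. Neither of these counts was made over all tested genes. The 4 group means of RRM2, in the order siCtrl, siATF6, DMSO and Ceapin, were 163.1 ± 1.32, 243.8 ± 3.44, 313.6 ± 0.980 and 298.4 ± 3.34 CPM. MCM2 was at 101.1 ± 2.31, 73.3 ± 3.15, 154.5 ± 2.11 and 150.2 ± 3.07 CPM in the same order.

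The promoters of the genes were also searched for short words. RefSeq gives a window from 250 bases before to 50 after the transcription start (GRCh38.p14) for 43 of the 48, and the first-listed start of each gene was used. The E2F words TTTCCCGC, TTTCGCGC, TTTGCCGC and TTTGGCGC, searched on both strands, occurred in 22 of these 43 (51.2%) and in 4.97% of the windows of 11890 other tested genes. The CCAAT word, bound by NF-Y, was in 53.5% against 35.8%, and TTTGAA, the CHR word of mitosis genes, in 2.33% against 9.85%. In DMSO against siCtrl, genes with and without an E2F word had medians of 0.73 and 0.74, and after the ATF6 siRNA 0.14 and 0.17. For genes with and without the CCAAT word these medians were 0.86 and 0.65, and 0.18 and 0.14. These splits were not tested. A match describes letters only. Many genes of this kind are known to be transcribed under E2F factors. A high share of E2F words could thus be foreseen from the choice of the 48 and is no independent finding. The promoters of E2F1, CDC6, MCM2 and MCM3 are shown 5′ to 3′ on the gene's strand with the E2F words in capitals, because MCM2 and MCM3 moved in opposite directions after the siRNA and both hold one.
E2F1 (chr20:33686336-33686635, minus strand): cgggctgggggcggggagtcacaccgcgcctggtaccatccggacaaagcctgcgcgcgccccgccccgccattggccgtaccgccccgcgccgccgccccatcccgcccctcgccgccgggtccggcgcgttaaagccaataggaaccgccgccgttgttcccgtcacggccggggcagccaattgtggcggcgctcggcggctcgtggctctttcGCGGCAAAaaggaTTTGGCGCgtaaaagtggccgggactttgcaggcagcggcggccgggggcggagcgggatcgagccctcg
CDC6 (chr17:40287629-40287928, plus strand): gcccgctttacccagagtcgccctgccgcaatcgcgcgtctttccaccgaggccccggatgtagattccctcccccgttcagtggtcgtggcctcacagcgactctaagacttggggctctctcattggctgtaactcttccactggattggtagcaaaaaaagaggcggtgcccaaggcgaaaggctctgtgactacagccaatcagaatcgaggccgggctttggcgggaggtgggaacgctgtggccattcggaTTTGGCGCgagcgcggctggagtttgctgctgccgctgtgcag
MCM2 (chr3:127598161-127598460, plus strand): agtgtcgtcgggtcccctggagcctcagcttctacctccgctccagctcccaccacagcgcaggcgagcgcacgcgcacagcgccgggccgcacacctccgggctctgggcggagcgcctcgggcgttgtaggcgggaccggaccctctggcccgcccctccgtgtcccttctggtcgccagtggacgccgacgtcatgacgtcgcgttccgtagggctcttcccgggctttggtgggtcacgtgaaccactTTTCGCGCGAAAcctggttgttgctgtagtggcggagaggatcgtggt
MCM3 (chr6:52284693-52284992, minus strand): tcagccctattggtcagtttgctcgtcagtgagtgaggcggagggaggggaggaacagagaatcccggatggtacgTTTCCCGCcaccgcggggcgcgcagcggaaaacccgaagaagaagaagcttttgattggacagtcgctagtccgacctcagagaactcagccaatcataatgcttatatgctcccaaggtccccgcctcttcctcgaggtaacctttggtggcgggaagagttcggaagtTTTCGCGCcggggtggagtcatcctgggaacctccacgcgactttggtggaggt
Counted from the start site as 1, the words began at −33 and −20 in E2F1, at 8 in CDC6, at −174 and −4 in MCM3, and at 3 and 7, overlapping on opposite strands, in MCM2.

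Per kilobase of exon, merged over all annotated transcripts, PCNA had the highest level of the 48, at 105 CPM per kb averaged over the 4 groups. MCM3 followed at 76.7, and both kept these places in each group. RRM2 (47.8), TK1 (47.4) and MCM4 (46.2) came next on average, but their order differed between groups and was not tested. In siCtrl RRM2 was at 30.6 CPM per kb, below MCM4 at 37.7, TK1 at 33.7, MCM7 at 32.6 and FEN1 at 31.7, whereas in siATF6 RRM2, at 45.8, was above all 4 of these. E2F2 had the lowest, at 2.31 CPM per kb. The spread within groups was narrowest for MCM4, with a coefficient of variation of 0.746%, and widest for E2F2, with 8.50%. Exons of 11 of the 48 overlap another listed gene by at least 100 bases, and 8, PCNA among them, have pseudogenes. The order of genes per kb depends on the merged exon length, which was 1471 bases for PCNA and 7338 for MCM5.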

How the data were processed

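RNA of 12 DU145 libraries was sequenced after preparation with a stranded TruSeq kit, per the labels' protocols. The authors deposited expected counts per gene, in whole numbers with no scaling for depth, made with Salmon on build hg38 per the submitters' processing notes. Salmon's version, its strand setting and the annotation are not given in the sources used here. In the table the smallest value is 1, so genes at 0 in a library are not in it. Groups came from the titles, and the columns with the prefix NC were matched to siCtrl by elimination and number. A transfection label assigns control siRNA to DMSO and ATF6 siRNA to Ceapin libraries, against titles and treatment text. The ATF6 level bears on the ATF6 siRNA, not on the control siRNA.

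In R 4.3.3, edgeR 4.0.16 was fitted to all 12 libraries with 1 term per group (filterByExpr, 3616 genes removed and 17823 tested, TMM scaling, quasi-likelihood with 8 residual degrees of freedom). Two-sided p-values received Benjamini-Hochberg adjustment over all tested genes, with a threshold of 0.05. SEs come from the F statistic, and CPM values are TMM-scaled. Reads carry no stated molecular identifiers, and errors are the spread between libraries. Positions, exon lengths and 3′ UTRs (the longest per gene, at least 50 bases) come from GENCODE release 29 on GRCh38. Some genes are not reported here. Symbols were matched by Ensembl identifier for 21201 genes.

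The 48 genes, the lists and the 7-base word were chosen with earlier results of these data known. Values in every library are given for called genes among the 8 largest changes of a treatment comparison or of the difference, for genes called in both treatments, and for the largest control difference per role. Of the other lists, up to 4 genes by smallest p are named. MCM3, MCM6, BARD1, PCNA, E2F1, CDT1, MCMBP, NME1, NBN and CHEK1 were described beyond this rule, after their values were seen. Alternatives were DESeq2 1.42.0 and its size factors, limma-voom (limma 3.58.1), library totals, other filters, the replicate number as a block, only the compared groups, a threshold of 0.01 and each library left out. Same-numbered libraries did not deviate together (correlations from −0.012 to 0.0296), so the numbers were not taken as pairs.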

Additional observations from a re-analysis of the deposited data

Results flagged for a closer look

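The genes below were picked out because the effect of the ATF6 siRNA (siATF6 minus siCtrl) and that of Ceapin-A7 (Ceapin minus DMSO) differed in a test of the difference itself (edgeR, adjusted p under 0.05). Values are the log2 difference, the siRNA effect less the compound effect. In helicase loading the difference was 0.43 for ORC1, 0.40 for ORC6, 0.31 for CDC6 and 0.30 for MCM3, and −0.42 for MCM2, −0.14 for MCM4 and −0.19 for MCM6. In helicase activation it was 0.44 for CDC45, 0.45 for GINS2, 0.41 for GINS4 and 0.19 for MCM10. The MCM10 value was lost without siCtrl replicate 3, siATF6 replicate 3 or DMSO replicate 3 (adjusted p = 0.0931, 0.0635 and 0.0526 by edgeR).

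Among G1/S regulators the difference was 0.25 for E2F1 and 0.24 for CCNE2. The CCNE2 value was lost without siCtrl replicate 1, siATF6 replicate 1, DMSO replicate 1 or Ceapin replicate 1 (adjusted p from 0.0556 to 0.0906 by edgeR). For the fork enzymes it was 0.24 for POLE2, 0.15 for PCNA, 0.25 for RFC4 and 0.22 for FEN1, with PCNA lost without Ceapin replicate 1 (adjusted p = 0.0566 by edgeR). Nucleotide supply held the largest, 0.65 for RRM2, with 0.30 for RRM1 and 0.31 for TYMS, and UHRF1 had 0.32. Among recombination and Fanconi genes it was 0.40 for EXO1, 0.31 for RAD51AP1, 0.26 for XRCC2, 0.17 for BRCA1, 0.16 for FANCI and −0.22 for PALB2. Groups of 3 libraries were not searched for single outlying libraries.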

How the results depend on the processing

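Each count was refitted under 21 alternatives, 12 of which left out 1 library. The number of the 48 genes called ranged from 27 to 32 after the ATF6 siRNA, from 3 to 6 after Ceapin-A7 and from 25 to 28 for the difference, and was 47 in DMSO against siCtrl under all of those run. No called value changed sign. After Ceapin-A7, 3 genes were called lower at an adjusted p under 0.01, where ORC1, PCNA and RRM2 were lost by the stricter threshold itself. Leaving out 1 library gave 3 to 6 genes lower and 0 to 1 higher. With the replicate block, 31, 5, 27 and 47 genes were called in the siRNA, Ceapin-A7, difference and control comparisons, RRM2 after Ceapin-A7 being the call lost (edgeR adjusted p = 0.0611). In the siRNA arm 1 of 3 numbers, and in the compound arm 0 of 3, correlated best with their own number. Fitting only the compared groups was not run for the difference, which needs all 12 libraries. Calls gained under at least 1 alternative were MCM7 and POLA1 after the siRNA, PALB2 after Ceapin-A7, and CDT1, MCM7, BARD1 and POLD1 for the difference. With 3 libraries per group and SEs of 0.0203 to 0.0795 for the 48 genes after Ceapin-A7, smaller changes may not have been detectable at this depth.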
